A study of Mus musculus with 6 samples.

Results

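Acetylation of histone H3 at lysine 27 (H3K27ac) was profiled by ChIP-seq, with nuclei from the gastrocnemius and quadriceps, and regions had been called in each replicate separately. The regions described here were chosen by absence from the other list: a region of one H3K27ac list belonged to the set if it shared no base with any region of the other. The replicate 1 list held 44887 regions, of which 8404 were called in replicate 1 only (18.7%). The replicate 2 list held 44987 regions, of which 8929 were called in replicate 2 only (19.8%). Both sets were kept apart, and together they were 17333 of the 89874 regions in the lists. Every group used here came from wild-type mice aged 2 months with no treatment named, and the groups are told apart by the antibody, directed against H3K27ac or against the transcription factor Maf. By the study's methods, the salt and the amount of antibody in the immunoprecipitation also differed between H3K27ac and Maf. The series holds 6 samples, with 2 biological replicates each for H3K27ac, Maf and input. The sources used here do not say how many animals were pooled for a replicate. The lists hold positions only, so read depth is unknown, and every interval given covers counting error over regions alone. Acetylated length below means length in called regions, and a place without a called region may still carry H3K27ac.

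H3K27ac is written by the acetyltransferases p300 and CBP and marks active promoters and enhancers. Enhancers are often used by a single cell type, while promoters of broadly used genes are marked in most cells. Nuclei purified from whole muscle come from myofibers and also from endothelial cells, fibro-adipogenic progenitors, macrophages, satellite cells, adipocytes and the Schwann cells of the nerve branches. Maf is a bZIP transcription factor that binds extended AP-1-like elements built around the half-site TGCTGAC, and it is found in fast myofibers.

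Some of the regions held Maf peaks that stood high in the longer Maf list, and DNA of the highest of these peaks is shown for both sets. The sources used here do not say what the order of that list stands for. High and highest therefore mean early in the list, not strong binding. Each stretch of DNA is printed on the forward strand of GRCm38 (mm10) with 30 bases to either side of the site. Capitals mark TGCTGAC or its reverse complement GTCAGCA. In replicate 1 only regions, the first 3 peaks with the site stood at positions 114, 531 and 644 of the Maf list of replicate 2, inside Srgap2 (intron, chr1:131432094-131432160), between genes in a region 258946 bp from the nearest start, that of Nuf2 (chr1:169271858-169271924), and in the coding exon of Gpr25 (chr1:136260498-136260564). In replicate 2 only regions, they stood at positions 4, 129 and 773, between genes 6302 bp from the start of Mfsd4b4 (chr10:39888657-39888723), inside Tns3 (intron, chr11:8494247-8494313) and between genes in a region 258536 bp from the nearest start, that of Rplp1 (chr9:61655623-61655689).
Srgap2: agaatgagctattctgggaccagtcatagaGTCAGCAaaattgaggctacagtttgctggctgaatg
Nuf2: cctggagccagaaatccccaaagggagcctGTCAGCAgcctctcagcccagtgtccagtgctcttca
Gpr25: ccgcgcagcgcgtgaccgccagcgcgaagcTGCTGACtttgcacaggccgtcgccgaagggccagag
Mfsd4b4: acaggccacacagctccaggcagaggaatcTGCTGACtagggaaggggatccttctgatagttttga
Tns3: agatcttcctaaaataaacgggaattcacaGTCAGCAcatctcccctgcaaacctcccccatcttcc
Rplp1: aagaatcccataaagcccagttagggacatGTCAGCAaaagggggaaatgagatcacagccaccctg

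The 3 peaks shown for replicate 2 only each held 2 copies of the site, and the 3 shown for replicate 1 only each held 1. The site in Srgap2 lay beyond the end of the acetylated region, which the peak touched with 31 of its 281 bases, and the other 5 sites lay inside their region. The highest peaks without the site stood at position 167 in the region at the start of Znhit3, a zinc finger protein, and at position 102 with Col13a1, a transmembrane collagen of the neuromuscular junction, as the nearest gene at 59808 bp. The latter peak had 102 of its 281 bases in the region (chr10:62038916-62039416), and the stretch shown for it ends before the region begins, so it is DNA of the peak and not of the set. Their central 67 bases (chr11:84916467-84916533 and chr10:62038844-62038910) are printed with no capitals, since they hold neither strand of the site.
Znhit3: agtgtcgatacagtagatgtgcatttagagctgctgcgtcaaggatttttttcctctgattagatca
Col13a1: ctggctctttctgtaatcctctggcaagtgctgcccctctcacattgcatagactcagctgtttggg

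Regions called in one replicate only were short. The median length was 628 bp for replicate 1 only and 501 bp for replicate 2 only, against 1716 and 1776 bp for the regions of the same lists called in both. The commonest length in the lists was 501 bp, which was also the shortest within the sets. It was the length of 3997 (47.6%) and 4659 (52.2%) of the regions in the sets, against 5.42% and 5.50% of regions called in both. Since both the length and the membership come from the same lists, these values describe the sets and were not tested. In bases, the sets made up 6.68% and 6.71% of the acetylated length of their lists.

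The share absent from the other list dropped steeply with length. Of the regions of at most 501 bp, 66.9% (95% Clopper-Pearson interval 65.7 to 68.1) of list 1 and 70.1% (69.0 to 71.2) of list 2 had no partner. At 751 to 1000 bp the shares were 31.2% and 32.5%, and at 2001 to 3000 bp they were 1.34% and 1.32%. Of the 2885 regions over 5000 bp in list 1 none was absent from list 2, which allows a share of up to 0.128% by the same interval, and of the 3096 in list 2 a single region was absent from list 1. Both lists gave nearly the same curve, and the share passed below 50% between the classes of 502 to 750 bp and 751 to 1000 bp.

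**Figure D1:**
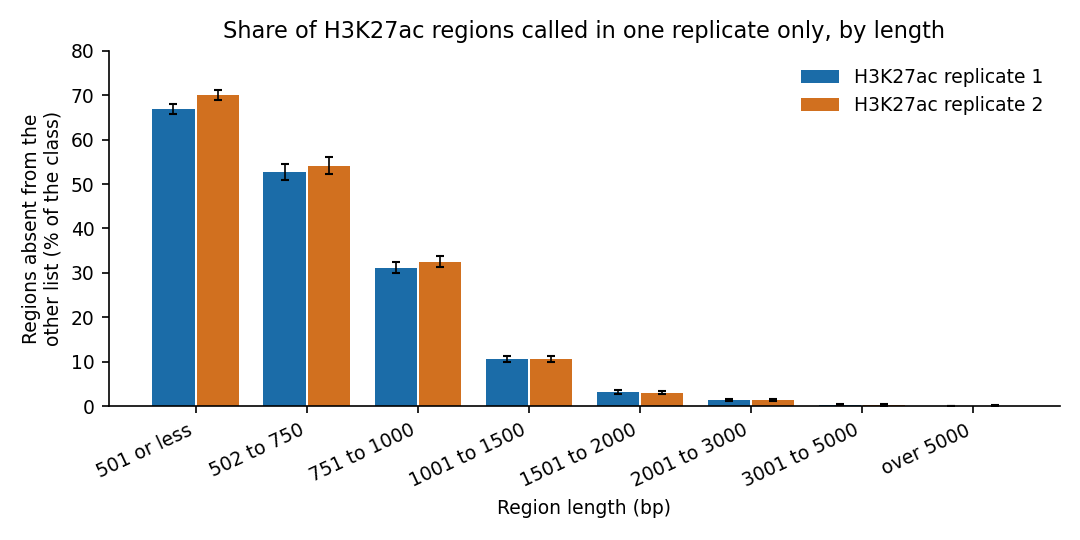
Share of the H3K27ac regions of each list that share no base with the other list (vertical axis, %), by length of the region in bp (horizontal axis); blue bars are replicate 1, orange bars replicate 2, and error bars are 95% Clopper-Pearson intervals. The shares drop from 66.9% and 70.1% at up to 501 bp to 1.34% and 1.32% at 2001 to 3000 bp.

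The regions stood late in their lists. Their median position was 38919.5 of 44887 for replicate 1 only and 38992 of 44987 for replicate 2 only, against 18259 and 18051.5 for regions called in both. The sources used here do not say what the order of the lists stands for, and the score column holds the value 1 in every row, so no strength of a region can be given.

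Most of the regions were not far from a region called in the other replicate. The median distance to the nearest region of the other list was 5433.5 bp for replicate 1 only and 4274 bp for replicate 2 only. Within 1 kb, 1273 (15.1%) and 1482 (16.6%) had a neighbour, and beyond 50 kb 710 (8.45%) and 559 (6.26%) had none. The neighbour was itself called in one replicate only for 581 of the 1273 (45.6%) and for 581 of the 1482 (39.2%). Over all distances the shares were 24.6% and 22.8%, while such regions are 19.8% and 18.7% of the lists searched. By the rule, a member never overlaps its neighbour, so the shares of the whole lists are not a like base, and no test was made. Where both were called in one replicate only, a region of each replicate lay side by side with no shared base. At Fos, an immediate-early AP-1 gene, a region of 745 bp in replicate 1 and a region of 651 bp in replicate 2 were 40 bp apart, about 5 kb from the start. Near Gapdh, the glycolytic enzyme gene often used as a control, regions of 641 and 764 bp were 130 bp apart within the neighbouring gene Iffo1. At the border of the rule, a replicate 1 region and a replicate 2 region near Srsf4 touched with 0 bp between them (chr4:131883195-131883695 and chr4:131882694-131883194), whereas regions near Galnt1 counted as called in both with 2 shared bases and regions near Unc119b with 3. Of the regions called in both, 107 of list 1 and 101 of list 2 shared at most 50 bases. The size of the sets moved with the rule. With 50% of a region covered before it counted as called in both, they held 10231 and 10766 regions, in place of 8404 and 8929. With a gap of 1 kb counted as called in both, they held 7131 and 7447.

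**Figure D2:**
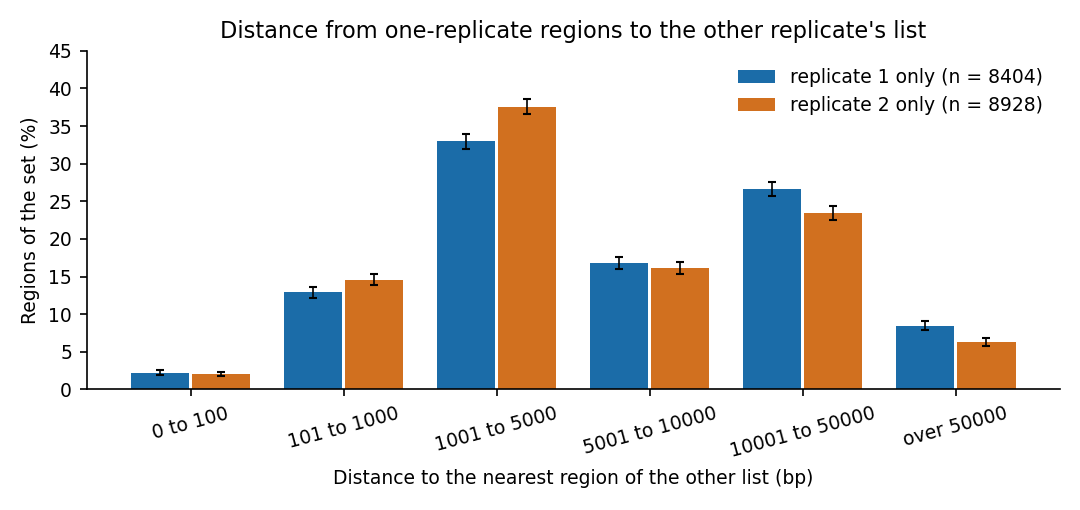
Distance in bp from regions called in one replicate only to the nearest region of the other list (horizontal axis, classes) and the share of the set in each class (vertical axis, %), with 95% Clopper-Pearson intervals; blue is replicate 1 only, orange replicate 2 only. The largest class in both sets is 1001 to 5000 bp with 33.0% and 37.6%, and 1 region on an unplaced sequence has no distance.

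The regions lay mostly in introns and between genes, by the place of the centre in the GENCODE annotation of protein-coding genes. Introns held 58.5% (57.4 to 59.5) of replicate 1 only and 61.8% (60.7 to 62.8) of replicate 2 only, against 54.5% and 54.3% of regions called in both. The space between genes held 36.3% and 31.6%, against 31.8% in both lists. Exons were less frequent: untranslated parts held 2.94% and 3.42% against 8.89% and 8.79%, and coding parts 2.33% and 3.26% against 4.88% and 5.10%. The median distance to a protein-coding start was 27153.5 and 23791.5 bp, against 11884 and 11891 bp. Between genes lay 3047 replicate 1 only regions and 2819 replicate 2 only regions, and this difference was not tested.

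Regions called in one replicate only were seldom at promoters, here any place within 1 kb of a protein-coding start. A promoter was reached by 382 of the 8404 replicate 1 only regions (4.55%) and by 11434 of the 36483 regions of list 1 called in both (31.3%), a difference of -26.8 percentage points (95% interval -27.4 to -26.1). In list 2 it was 500 of 8929 (5.60%) against 11403 of 36058 (31.6%), a difference of -26.0 points (-26.7 to -25.3). Both differences had adjusted p below 1e-300 (Fisher's exact test, two-sided, Benjamini-Hochberg over the 17 tests made). Such p-values count regions of these lists as units and say nothing of further animals, for which there were 2 samples. A short region can reach fewer starts, and within 10 strata of region length the differences were smaller, at -10.3 and -7.66 points (adjusted p = 7.51e-97 and 7.21e-55, Cochran-Mantel-Haenszel test in place of the exact test). In the class of 1001 to 1500 bp, promoters held 4.59% of replicate 1 only and 7.83% of replicate 2 only regions, against 26.7% and 25.7% of regions called in both. Between the sets, replicate 2 only had the higher share, with a difference (replicate 1 only minus replicate 2 only) of -1.05 points (-1.71 to -0.400, adjusted p = 0.00349, Fisher's exact test). With 1 start per gene this last difference was -0.573 points and did not pass (adjusted p = 0.0919, Fisher's exact test).

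Maf peaks were also seldom in these regions. The Maf lists held 74 peaks of 181 bp in replicate 1 and 5467 peaks of 281 bp in replicate 2, so the overlap with Maf rests almost wholly on the latter. A Maf peak was met by 136 replicate 1 only regions (1.62%, interval 1.36 to 1.91) and by 9.12% of list 1 regions called in both, a difference of -7.51 percentage points (-7.90 to -7.09, adjusted p = 1.18e-159, Fisher's exact test). It was met by 129 replicate 2 only regions (1.44%, 1.21 to 1.71) and by 9.24% of list 2 regions called in both, a difference of -7.79 points (-8.17 to -7.39, adjusted p = 1.49e-182, Fisher's exact test). Without Maf replicate 2 these differences were -0.120 and -0.133 points and still passed (adjusted p = 0.00183 and 0.000121, Fisher's exact test). Within strata of length they were -1.64 and -1.60 points (adjusted p = 2.19e-09 and 2.35e-09, Cochran-Mantel-Haenszel test in place of the exact test). Per acetylated megabase the sets held 22.2 and 20.4 Maf peaks of replicate 2, against 40.8 and 39.7 in regions called in both. The sets did not differ from each other past the threshold, with 0.174 points between them (-0.193 to 0.544, adjusted p = 0.430, Fisher's exact test).

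**Figure D3:**
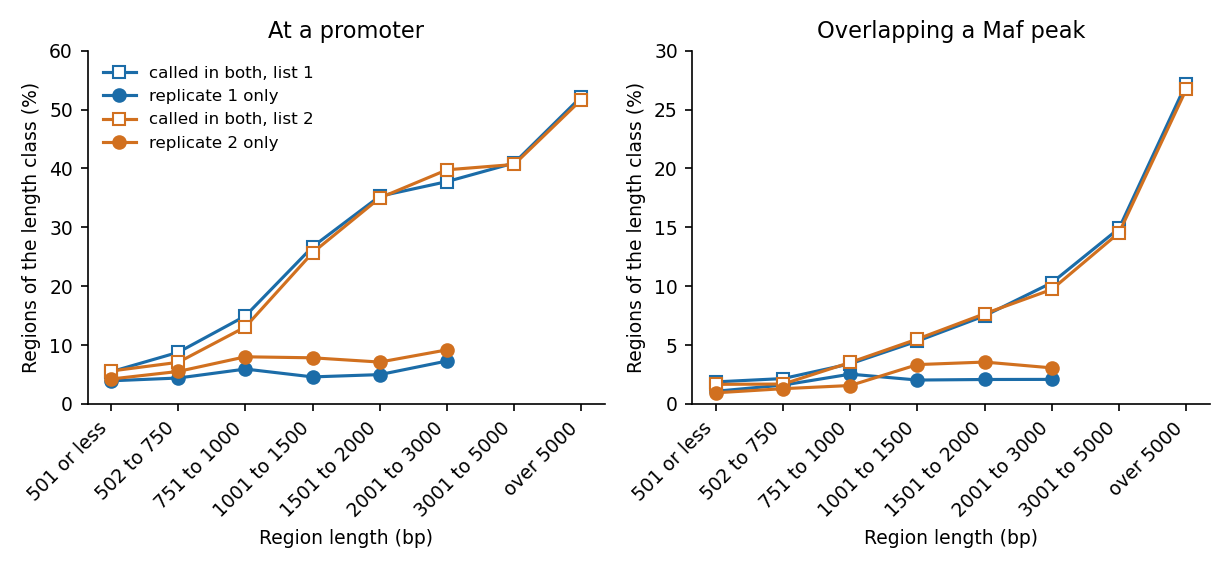
Share of H3K27ac regions at a promoter (left) and overlapping a Maf peak (right), in %, by region length in bp, for regions called in one replicate only (filled circles) and in both (open squares), list 1 in blue and list 2 in orange; classes with fewer than 20 regions are left out. Filled circles stay below 10% and 4% in every class drawn, while open squares climb to 52.2% and 27.2% in list 1.

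Seen from Maf, 136 of the 5467 peaks of replicate 2 (2.49%) overlapped replicate 1 only regions and 129 (2.36%) overlapped replicate 2 only regions, by at least 1 base. The centre of the peak was inside the region for 105 and 110 of them. Another 3527 (64.5%) overlapped regions called in both, and 1675 (30.6%) overlapped no H3K27ac region. Peaks in the sets stood in the middle of the Maf list, with median positions of 3007.5 and 3089. The medians were 2037 for peaks in regions called in both and 4182 for peaks in no H3K27ac region. TGCTGAC was within 100 bp of the centre in 30 of the 136 peaks (22.1%, 15.4 to 30.0) and in 45 of the 129 (34.9%, 26.7 to 43.8). It was in 23.5% of peaks in regions called in both and in 14.6% of those in no H3K27ac region. The interval for replicate 2 only does not reach the value of peaks in regions called in both, but this comparison was made after the values were seen and was not tested. Of the 74 Maf peaks of replicate 1, a single one lay in the sets, in a replicate 1 only region between genes 66360 bp from Dhx35, an RNA helicase gene.

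The peak at position 4 of the Maf list lay in a replicate 2 only region of 1414 bp (chr10:39888106-39889519), 6302 bp from the nearest start, that of the sugar transporter-like gene Mfsd4b4. The nearest region of the replicate 1 list was 8660 bp away. The peak at position 114 touched a replicate 1 only region of 645 bp (chr1:131431358-131432002) in an intron of Srgap2. Other peaks of the sets among the highest lay inside Nav2 and Kif6 for replicate 1 only and inside Tns3, which codes for the focal adhesion protein tensin 3, and Foxn3 for replicate 2 only. A peak at position 855 lay in a replicate 2 only region inside Zc3h3, 42971 bp from the start of Mafa, which codes for another large Maf factor. The gene Maf itself was nearest to 11 replicate 1 only regions, 5 replicate 2 only regions and 15 regions of list 1 called in both.

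The regions held somewhat less GC and fewer CG dinucleotides than regions called in both. The median GC content was 46.1% and 47.2%, against 48.6% in both lists, and the median number of CG dinucleotides was 10.0 and 11.1 per kb, against 14.5 and 14.4. The median share of bases in repeats was slightly lower in the sets, at 13.2% and 13.1%, against 14.3% and 14.7%. Regions with over 50% of their bases in repeats were nonetheless more frequent in the sets. They made up 358 replicate 1 only regions (4.26%) against 1.32% of regions called in both, a difference of 2.94 points (2.51 to 3.41, adjusted p = 3.49e-58, Fisher's exact test). For replicate 2 only they made up 412 regions (4.61%) against 1.43%, a difference of 3.18 points (2.75 to 3.65, adjusted p = 3.38e-65, Fisher's exact test). Within strata of length neither difference passed, at 0.515 points (adjusted p = 0.110) and 0.151 points (adjusted p = 0.683, Cochran-Mantel-Haenszel test in place of the exact test).

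Motifs in the central 200 bp were compared by their letters on both strands, and a match is a description of letters and not a bound site. The AP-1 sequence TGANTCA was in 7.44% of replicate 1 only regions against 6.37%, a difference of 1.07 points (0.469 to 1.70, adjusted p = 0.00106, Fisher's exact test). This difference was 3.21 points with both lists cut to their first 50% and membership taken anew, and 2.03 points in windows of 400 bp. For replicate 2 only it was in 6.85% against 6.34%, a difference of 0.511 points that did not pass (-0.0562 to 1.11, adjusted p = 0.122, Fisher's exact test) but did within strata of length (0.914 points, adjusted p = 0.0319). The Maf half-site TGCTGAC was in 3.55% of replicate 1 only regions against 3.59% (difference -0.0456, -0.468 to 0.411, adjusted p = 0.919, Fisher's exact test). It was in 4.18% of replicate 2 only regions against 3.58%, a difference of 0.594 points that passed (0.152 to 1.07, adjusted p = 0.0161, Fisher's exact test) and did not within strata of length (0.456 points, adjusted p = 0.199). The E-box CAGCTG bound by myogenic factors was in 13.7% and 14.2% of the sets against 14.2% in both lists, and the Mef2 sequence was in 3.50% and 3.13% against 3.70% and 3.56%. None of these 4 comparisons passed (adjusted p from 0.0829 to 0.919, Fisher's exact test), and the intervals of the differences ran from -1.23 to 0.773 points for CAGCTG and from -0.825 to 0.250 points for the Mef2 sequence. Of the Mef2 comparisons, that of replicate 2 only passed within strata of length (-0.743 points, adjusted p = 0.0188, Cochran-Mantel-Haenszel test in place of the exact test). In RefSeq promoters of 300 bases, the longer window held TGANTCA in 7.81%, TGCTGAC in 4.67%, CAGCTG in 16.3% and the Mef2 sequence in 3.19%.

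Of the 10 longest regions, 5 of replicate 1 only and 6 of replicate 2 only had their centre in an intron. In replicate 1 only, the longest was 4533 bp in an intron of Fam13c (chr10:70492210-70496742), 13264 bp from any region of the other list. Others among the longest were 3766 bp within Sptbn1, which codes for a spectrin of the membrane skeleton, and 3688 bp within Ebf1, a transcription factor of B cells and adipocyte precursors. Further regions of the first 10 had as nearest gene Siglec1, a sialic acid receptor of macrophages, at 2051 bp, and Fgfr1, a fibroblast growth factor receptor, at 68289 bp. In replicate 2 only, the longest was 5201 bp within Sept11, which codes for a septin (chr5:93127029-93132229), with a region of replicate 1 1032 bp away. It was followed by 4334 bp within Amotl1, an angiomotin-like junction protein, by 4059 bp within Celf1, an RNA-binding regulator of muscle splicing, and by 3823 bp between genes 11971 bp from Tnfaip2. A region of 3532 bp lay within Smad6, an inhibitor of BMP signaling. Of the 10 longest regions of each set, 2 of replicate 1 only and 1 of replicate 2 only met a Maf peak. The central 200 bp of the longest region of either set held none of the 4 motifs.

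The sets spread over many genes. Replicate 1 only regions were nearest to 4970 protein-coding genes, of which 3134 had a single region and 786 had 3 or more. Replicate 2 only regions were nearest to 5071 genes, of which 3150 had a single region and 908 had 3 or more. The 10 genes with the most regions of either set all had regions called in both and regions of the other set too. Ebf1 was nearest to 16 replicate 1 only regions, 10 replicate 2 only regions and 19 regions of list 1 called in both, over 605746 bp. Creb5, a bZIP factor gene, had 12 replicate 1 only regions against 3 of the other set, and Ets1, a transcription factor of lymphocytes and endothelium, had 10 against 3. Plpp3, a lipid phosphate phosphatase, and Rgma, a BMP co-receptor, had 12 each. In replicate 2 only, Sox6, which represses slow fiber genes in fast muscle, had 15 against 9 of the other set. Plcb4, a phospholipase C, had 14 against 7, Ttn, the giant sarcomere protein titin, had 13 against 7, and Zfp36l1, an RNA decay factor, had 12 against 4. Long genes with wide introns offer more room for a region, and these counts were not set against gene length.

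Genes close to the sets were counted within 10 kb of any start. Of the 21827 protein-coding genes, 2300 had a replicate 1 only region there (10.5%) and 2649 a replicate 2 only region (12.1%). Of the 13522 genes that had a list 1 region called in both within 10 kb, the shares were 13.9% and 16.3%. Within 50 kb of a start, the shares of all 21827 genes were 34.6% and 36.5%. The lists below are read against these shares, and with at most 24 genes a list a difference of a few genes carries little weight. A region within 10 kb of the starts of neighbouring genes is counted for each of them, so the genes of a list are not always separate hits.

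Genes of the myofiber had regions of both sets. Of 24 genes of fast fiber contraction and calcium handling, 6 had a replicate 1 only region and 6 a replicate 2 only region. The former included Myh1, the fast myosin heavy chain of type 2X fibers, with 1232 bp, and Ckm, the muscle creatine kinase, with 626 bp. The latter included Atp2a1, the fast calcium pump, with 501 bp, and Actn3, the fast Z-disc protein, with 1632 bp beside a replicate 1 only region of 718 bp. Of 13 slow fiber genes the counts were 4 and 2, with Tpm3 (1265 bp) and Myl2 (626 bp) in replicate 1 only and Atp2a2 (958 bp) in replicate 2 only. Of 18 genes of glycolysis and glycogen they were 5 and 2. Of 20 genes of oxidative metabolism and fatty acid use they were 9 and 6, with Hadha (1346 bp), an enzyme of fatty acid oxidation, in replicate 1 only and Cd36, the fatty acid carrier, in both sets (1239 and 768 bp). Of 18 myogenic and Mef2 factor genes they were 4 and 6. Mef2c had a replicate 1 only region of 1435 bp, and a replicate 2 only region of 928 bp lay on Myf5, which marks muscle progenitors. The same region was also counted for Myf6, whose start was 8360 bp away. Within 50 kb of a start the counts were 8 and 8 for slow fiber genes, 11 and 12 for glycolysis and glycogen, and 11 and 14 for oxidative metabolism. The shares of all genes there were 34.6% and 36.5%. The higher count in replicate 1 only was thus not kept in these lists. All 24 fast fiber genes, all 18 glycolytic genes and all 18 factor genes also had a region called in both within 10 kb. Of the 13 slow fiber genes 10 had one, and the slow fiber marker Myh7, like Myh7b, had no called region within 10 kb in either list.

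Of 15 genes of the atrophy and glucocorticoid response, 10 had a replicate 2 only region and 4 a replicate 1 only region, and all 15 had a region called in both. Foxo3, Fkbp5 and Tsc22d3 were in both counts, and the difference between the counts was not tested. Nfkbia, the inhibitor of NF-kappa-B, had 1493 bp, Fbxo32, the ubiquitin ligase atrogin-1, had 1426 bp and the metallothionein gene Mt1 had 1200 bp in replicate 2 only. Fkbp5, a chaperone gene induced by glucocorticoids, had 1208 bp in replicate 1 only. Counting every region within 10 kb, whether shared or not, 12 of the 15 genes had more acetylated length in replicate 2, where 8504 of 14327 marked genes had more. Nfkbia was covered over 3917 bp in replicate 1 and 7171 bp in replicate 2, and Fbxo32 over 11881 and 13470 bp. Within 50 kb of a start the counts of genes were 9 and 13 of 15, against 34.6% and 36.5% of all genes.

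**Figure D4:**
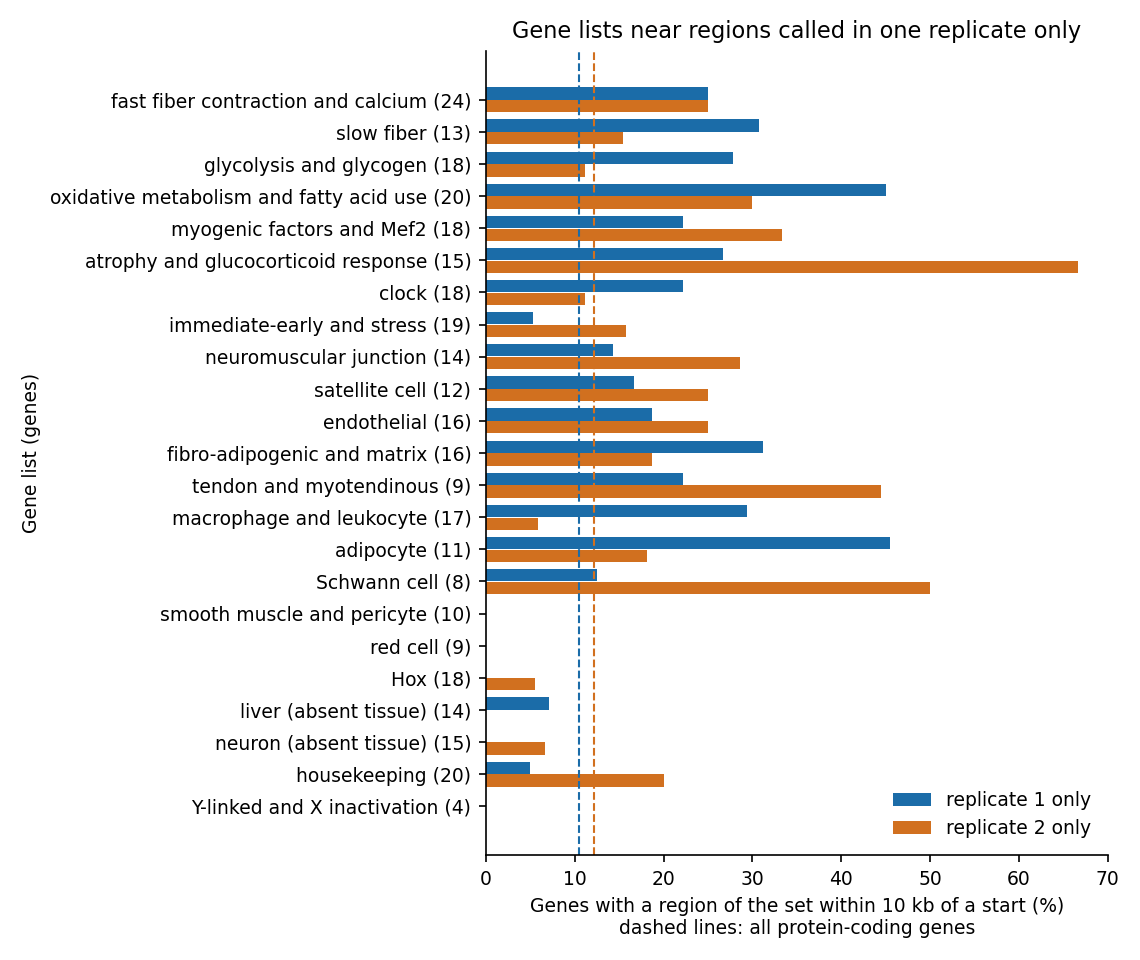
Share of the genes of each list with a region called in one replicate only within 10 kb of a start (horizontal axis, %), with the number of genes of the list in brackets; blue is replicate 1 only and orange replicate 2 only. Dashed lines mark all protein-coding genes at 10.5% and 12.1%. The longest bars of replicate 2 only are atrophy and glucocorticoid (10 of 15), Schwann cell (4 of 8) and tendon and myotendinous genes (4 of 9). Those of replicate 1 only are adipocyte (5 of 11) and oxidative metabolism genes (9 of 20).

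In the lists of other cell types, more adipocyte and leukocyte genes had a replicate 1 only region than a replicate 2 only region. The reverse held for Schwann cell genes and for the list of tendon and myotendinous genes, which is not free of myofiber genes. These are counts of a few genes with members on both sides in every list, and none was tested. In these nuclei of whole muscle, more cells of a type, more acetylation per cell and a difference in read depth or calling cannot be told apart. Of 11 adipocyte genes, 5 had a replicate 1 only region and 2 a replicate 2 only region (Plin1 and Cfd). Plin1 was in both counts, since a replicate 2 only region of 638 bp lay 1809 bp from its start. Plin1, which codes for the lipid droplet coat protein perilipin, had 3054 bp in replicate 1 only, Cidec, a lipid droplet fusion protein, had 2220 bp, and Lep, Retn and Lipe had one each. Over all regions within 10 kb, 8 of the 9 marked adipocyte genes had more acetylated length in replicate 1, which held for 5746 of the 14327 marked genes (40.1%) in all. Plin1 was covered over 3403 bp in replicate 1 and 638 bp in replicate 2, Cidec over 3617 and 1459 bp, and Lipe, the hormone-sensitive lipase, over 12254 and 10978 bp. Other differences were small, as at Pparg with 1851 and 1808 bp and at Plin4 with 13667 and 13516 bp. The defining gene Adipoq had no called region within 10 kb in either list, nor had Ucp1. Cfd, which codes for adipsin, had 501 bp in replicate 2 only.

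Of 17 macrophage and leukocyte genes, 5 had a replicate 1 only region (Spi1, Tyrobp, Cd3e, Runx1 and Cebpa) and 1 a replicate 2 only region (Cd68). Of the 15 marked genes, 13 had more acetylated length in replicate 1, against the same 40.1% of all marked genes. Spi1, the myeloid transcription factor PU.1, was covered over 6123 bp in replicate 1 and 4921 bp in replicate 2, Mrc1, a mannose receptor of tissue macrophages, over 3292 and 1846 bp, and Ptprc, the pan-leukocyte phosphatase CD45, over 2280 and 1200 bp. Other differences were small, as at Tyrobp with 7913 and 7845 bp and at Cd14 with 4057 and 3907 bp. The macrophage gene Csf1r went the other way with 4794 and 5248 bp, as did Cd68. Within 50 kb of a start, 10 of the 17 genes had a replicate 1 only region (58.8%) and 5 a replicate 2 only region (29.4%). Of the 11 adipocyte genes it was 9 (81.8%) and 6 (54.5%), against 34.6% and 36.5% of all genes. Within 10 kb, Cx3cr1 and Runx3 had no called region in either list.

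Of 8 Schwann cell genes, 4 had a replicate 2 only region (Sox10, Mbp, Cdh19 and Erbb3) and 1 a replicate 1 only region (S100b). Sox10, the transcription factor that defines the Schwann lineage, had 2148 bp in replicate 2 and no called region within 10 kb in replicate 1. Erbb3, the neuregulin receptor, was covered over 3299 bp in replicate 2 and 1415 bp in replicate 1. Of the 8 genes, 5 had more acetylated length in replicate 2 and 3 in replicate 1, the latter being Prx (6944 bp in replicate 2 and 7118 bp in replicate 1), Ncam1 (501 and 1858 bp) and S100b (0 and 880 bp). Summed over the list, replicate 1 had 0.772 times the acetylated length of replicate 2, against 0.965 over all genes. Within 50 kb of a start the sets were closer, with 3 of 8 genes in replicate 1 only and 4 in replicate 2 only, against 34.6% and 36.5% of all genes. Sox10 and Mbp were then in both counts.

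Of 9 tendon and myotendinous genes, 2 had a replicate 1 only region (Scx and Mkx) and 4 a replicate 2 only region (Tnmd, Comp, Col22a1 and Egr1). By the paper, Col22a1 marks myonuclei at the myotendinous junction, and Egr1 is also counted among the immediate-early genes, so neither stands for tendon cells alone. Tnmd, the tendon membrane protein tenomodulin, had 2782 bp in replicate 2 within 10 kb and none in replicate 1, Col22a1, a collagen of the myotendinous junction, had 3356 and 1234 bp, and Comp, a cartilage and tendon matrix protein, had 1592 and 295 bp. Thbs4 went the other way with 904 and 2582 bp, as did the tendon transcription factors Scx with 8891 and 9319 bp and Mkx with 0 and 501 bp. In all, 5 of the 8 marked genes had more acetylated length in replicate 2, where 8504 of 14327 marked genes had more. Whether the makeup of the tissue samples had a part in any of these differences was not tested, and with 1 list per replicate no spread stands behind them.

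**Figure D5:**
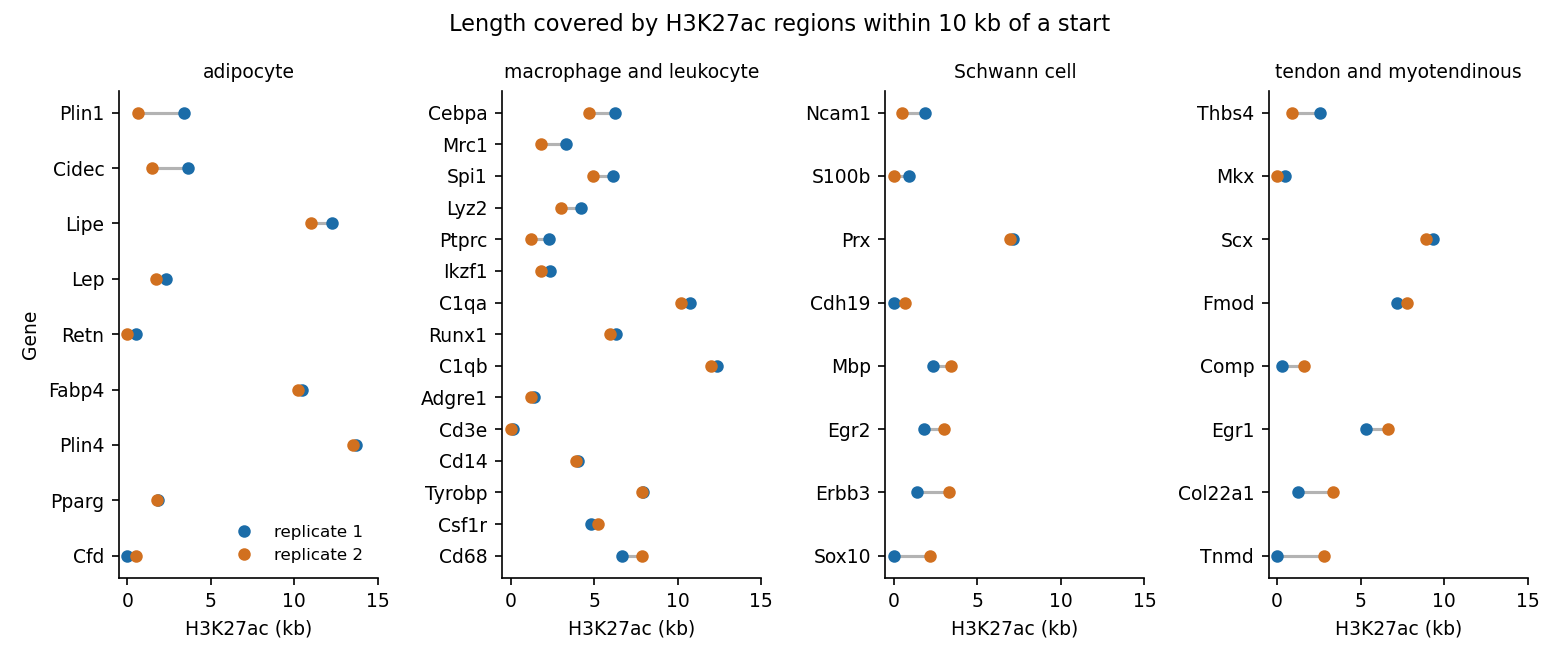
Length covered by H3K27ac regions within 10 kb of a start (horizontal axes, kb) for the marked genes of 4 cell type lists, in replicate 1 (blue) and replicate 2 (orange), with genes ordered by the difference. Blue lies to the right for 8 of 9 adipocyte and 13 of 15 macrophage and leukocyte genes, while orange lies to the right for 5 of 8 Schwann cell genes, among them Sox10.

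For the remaining lists, the counts for replicate 1 only and replicate 2 only were 3 and 4 of 16 endothelial genes, 5 and 3 of 16 fibro-adipogenic and matrix genes, 2 and 3 of 12 satellite cell genes, and 2 and 4 of 14 genes of the neuromuscular junction. They were 4 and 2 of 18 clock genes, 1 and 3 of 19 immediate-early and stress genes, 1 and 4 of 20 housekeeping genes, and 0 and 1 of 18 Hox genes. None of 10 smooth muscle and pericyte genes and none of 9 red cell genes had a region of either set within 10 kb. The shares of all genes there were 10.5% and 12.1%, so lists of this size would hold few. Of genes of absent tissues, the sets held 1 and 0 of 14 liver genes and 0 and 1 of 15 neuron genes. By covered length, 7 of 9 marked smooth muscle and pericyte genes and 14 of 18 Hox genes had more in replicate 2, against 8504 of all 14327 marked genes. Neighbouring Hox genes can share regions, so they are not separate counts. The summed length in replicate 1 was 0.856 and 0.923 times that in replicate 2 for these lists, against 0.965 over all genes. Of the housekeeping genes, 12 of 20 had more in replicate 2. Within 50 kb, fibro-adipogenic and matrix genes turned to 7 and 10 of 16, against 34.6% and 36.5% of all genes. Smooth muscle and pericyte genes turned to 5 and 7 of 10 there, and red cell genes to 2 and 2 of 9. The Y-linked genes were marked in both lists by regions called in both.

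Promoters marked in a single replicate show the sets at named starts. A promoter held a region of replicate 1 and no region of replicate 2 for 290 genes (1.33% of 21827), and the reverse held for 363 genes (1.66%), while 12020 genes had a region called in both there. The regions at these promoters had a median length of 635.5 and 667 bp, and 7 and 9 of the genes had a Maf peak in the region. In replicate 1 only, the longest was at Plin1 (3054 bp), and others among the longest were at Aif1, which codes for the macrophage protein Iba1 (2394 bp), Aldh1a3, an enzyme of retinoic acid synthesis (2315 bp), Cidec (2220 bp) and Nrn1 (2132 bp). Cd80, a costimulatory ligand of antigen-presenting cells (2012 bp), Enpp2, which codes for autotaxin (1913 bp), the matrix gene Mfap4 (1894 bp) and Lgals12, a galectin of adipocytes (1890 bp), followed. In replicate 2 only, the longest were at Adh7, an alcohol and retinol dehydrogenase (2298 bp), Ttll3 (2277 bp), Mpp2 (2271 bp), Afap1l2 (2191 bp), Nrip2 (2164 bp), Sox10 (2148 bp) and Tent5c (1989 bp). Exoc3l2 (1913 bp), Ackr1, the atypical chemokine receptor of venular endothelium (1757 bp), and Eps8l2 (1744 bp) followed.

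The promoters of Cidec and Adh7 are shown because they are the first in each set whose 250 bases before a RefSeq start lie wholly inside the region. The Cidec promoter (chr6:113434765-113435014, minus strand) and the Adh7 promoter (chr3:138217523-138217772, plus strand) are written along the gene on GRCm38.p6, and capitals mark TGANTCA, the single motif of the 4 found in either.
Cidec: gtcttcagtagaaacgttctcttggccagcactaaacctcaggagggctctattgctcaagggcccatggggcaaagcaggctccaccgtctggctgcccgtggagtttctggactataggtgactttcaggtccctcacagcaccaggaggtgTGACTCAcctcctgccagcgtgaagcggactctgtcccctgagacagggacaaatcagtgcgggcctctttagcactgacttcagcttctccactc
Adh7: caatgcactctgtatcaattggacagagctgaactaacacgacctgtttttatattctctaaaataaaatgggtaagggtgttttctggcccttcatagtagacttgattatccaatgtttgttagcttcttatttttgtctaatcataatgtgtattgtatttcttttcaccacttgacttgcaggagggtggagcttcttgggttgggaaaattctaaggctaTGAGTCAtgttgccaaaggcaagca

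Among the 19 autosomes and X, the share of list 1 called in one replicate only ran from 16.2% (14.2 to 18.4) on X to 20.9% (19.3 to 22.6) on chromosome 6, and that of list 2 from 16.6% (14.6 to 18.8) on X to 22.6% (20.5 to 24.8) on chromosome 18. The intervals of the lowest and the highest chromosome did not overlap in either list, and these shares were not tested. Chromosome Y held 2 replicate 1 only regions of 8 and no replicate 2 only region of 6.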

How the data were processed

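ChIP-seq was done by the authors on nuclei of gastrocnemius and quadriceps muscles, and the sheared chromatin was divided between both antibodies. The submitters' processing notes name bcl2fastq 2.17, FastQC, Bowtie2 2.3.2, Picard 2.10.3 and HOMER, with the mouse build GRCm38 (mm10). The study's methods add adaptor trimming and read filtering with Samtools and Sambamba, without thresholds, and name other versions of some tools. A false discovery rate is stated for the Maf peaks, while the settings for H3K27ac regions and the use of the input in calling are not given in the sources used here. The deposited lists give 1 row per peak with 6 columns, and the deposited score is 1 in every row. Samples were grouped by their titles. The columns with start and end were used, and the input samples were not analysed here.

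Membership, places and overlaps (1 shared base) were computed with Python 3.11.15, pandas 2.3.3 and SciPy 1.17.1, and sequence with pysam 0.24.0. GENCODE vM21 gave 41433 starts of 21827 protein-coding gene names. Shares were compared by Fisher's exact test with Benjamini-Hochberg adjustment over 17 tests and a threshold of 0.05, and differences have 95% Newcombe intervals. Membership and tests were checked on simulated data. Of 339 entries in 23 gene lists, 338 matched. Some genes of the lists and of the rule are not reported here and were left out of the list counts. Named genes are, in each set, those of the 10 longest regions, the 10 highest Maf peaks, the 10 genes with most regions, the 10 longest one-list promoters and up to 3 per gene list. The members, lists and rule were chosen with earlier results of these data known, and the share of TGCTGAC in Maf peaks, covered lengths, neighbours and shown promoters were added later. Samples with the same replicate number were not treated as pairs. The alternatives were other overlap rules, the first 50% of each list, strata of length, and other windows.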

Additional observations from a re-analysis of the deposited data

How the results depend on the processing

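The lists give no strength or depth, and with 1 list per replicate no H3K27ac sample was left out. No paired analysis was possible because each replicate number stands for a single list and no test ran across samples.

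Of 97 repeats of the 17 tests under other settings, 67 kept their direction and their side of the threshold, 7 lost the call, 5 gained it and 18 changed sign. All comparisons of promoters and Maf peaks with regions called in both kept both in every repeat, and without Maf replicate 1 or Maf replicate 2 the Maf differences ran from -7.50 to -0.120 points for replicate 1 only, from -7.79 to -0.133 for replicate 2 only, and from 0.0119 to 0.174 between the sets. Values below are differences in percentage points (set minus regions called in both, unless sets are compared), and the cause was not tested.

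With 50% of a region covered before it counted as called in both, TGCTGAC gave 0.0181 and 0.360 for replicate 1 only and replicate 2 only, and for replicate 2 only CAGCTG gave 0.0564 and TGANTCA 0.674. With a gap of 1 kb counted as called in both, TGCTGAC and the Mef2 sequence gave 0.108 and 0.0770 for replicate 1 only, and CAGCTG gave 0.147 for replicate 2 only. With both lists cut to their first 50%, 1154 and 1378 regions shared no base with the cut list of the other replicate, in place of 8404 and 8929. A region that overlaps only the later 50% of the other list counts there as called in one replicate only, so these are not simply the early members of the sets. There replicate 1 only gave 1.57 for TGCTGAC, 0.739 for CAGCTG and 1.42 for the Mef2 sequence, and replicate 2 only gave 0.270, 1.49 and 0.0462, with 2.06 for TGANTCA and 0.310 for repeats. The difference in repeats between the sets was 0.588 there and 0.0776 with 80% masked. Within strata of length, repeats gave 0.515 and 0.151, TGCTGAC 0.191 and 0.456, and the Mef2 sequence 0.0586 and -0.743, while replicate 2 only gave 0.128 for CAGCTG and 0.914 for TGANTCA. With 1 start per gene, the promoter difference between the sets was -0.573. In windows of 400 bp, replicate 1 only gave 0.492 for TGCTGAC and 0.645 for the Mef2 sequence, and replicate 2 only gave 0.559 for CAGCTG and 1.39 for TGANTCA. Some differences kept their call and changed in size. Repeats for replicate 1 only gave 0.907 in the first 50% of each list, and with 80% masked repeats gave 0.411 and 0.321 for the sets. TGANTCA for replicate 1 only gave 3.21 in the first 50% and 2.03 in windows of 400 bp, where TGCTGAC for replicate 2 only gave 1.00. The promoter difference between the sets was -3.63 in the first 50% and -1.75 within 2.5 kb of a start. Within 50 kb of a start in place of 10 kb, 34 of 48 shares of genes (23 lists and all genes, both sets) left their interval and 14 did not.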
